A study of Mus musculus with 18 samples.

Results

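The 10 genes described here serve the presentation of peptides on major histocompatibility complex (MHC) molecules, and they were taken by name. For class I they are H2-K1 and H2-D1, which encode the heavy chains, B2m, which encodes the light chain beta-2-microglobulin, Tap1 and Tap2, the subunits of the peptide transporter of the endoplasmic reticulum, and Tapbp, which encodes tapasin and couples that transporter to empty class I molecules. For class II they are H2-Aa and H2-Ab1, the alpha and beta chains of the I-A molecule, Cd74, the invariant chain that fills the class II groove until peptide is loaded, and Ciita, the transactivator of class II promoters. All 10 were found among the 20430 genes of the table of fibroblasts, and 9 among the 20115 of the table of differentiation stages, where Tapbp was not analysed here. H2-D1 is listed jointly with the name H2-L, so that both names share the same values.

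RNA-seq was performed on 18 samples of strain 129 mouse cells. The 5 stages came from an ESC line with a GFP reporter in the brachyury gene, kept on feeder fibroblasts and differentiated in vitro. They were undifferentiated ESCs, mesoderm (MES; Bry.GFP+, FLK1-), hemangioblasts (HB; Bry.GFP+, FLK1+), hematopoietic progenitors (HP; CD41+) and macrophages (MAC; CD11b+), with 2 replicates for each stage that the authors combined into 1 value. Hemogenic endothelium was not analysed here. The remaining 8 samples were fibroblasts of embryonic day 14.5 (MEFs), untreated (uFIB) or reprogrammed toward blood with Scl, which is Tal1, and Lmo2 (SL), with both of these plus Fli1 and Gata2 (SFGL), or with the same set lacking Scl (FGL), with 1 library each at day 12 and at day 21. The MEFs were wild type or carried a doxycycline-inducible TAL1 transgene with GFP, and which libraries came from which was not given in the sources used here.

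Class I molecules are made by nearly all nucleated cells and display peptides cut in the cytosol by the proteasome to CD8 T cells. Class II molecules display peptides from endosomes to CD4 T cells and are mostly restricted to macrophages, dendritic cells and B cells. Interferon gamma raises both sets, through NLRC5 for class I and CIITA for class II.

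Values are FPKM, fragments scaled to transcript length and to the aligned fragments of the library. With 1 value per stage and 1 library per MEF treatment and day, no test was possible between stages or within a day, and a fit of the MEFs that takes both days together was not run. A gene was counted as higher or lower when the difference on the log2(FPKM + 1) scale was at least 1, called 2-fold here, and the higher value was at least 1 FPKM. The counts are set beside the share of all genes with at least 1 FPKM in at least 1 column of the same table that met the same limits, 12010 genes for the stages and 12923 for the MEFs. Differences on that scale understate changes of weakly expressed genes, and levels were compared only within a table. The 4 pluripotency markers summed to 569 FPKM in ESC and 0.172 in MAC, the sum of the 2 mesoderm markers was highest in MES with 189, and the 7 macrophage markers summed to 1357 in MAC against 1.62 to 22.5 elsewhere. The libraries labelled SL and SFGL held 19.9 to 49.5 FPKM of Gata1, against 0.022 or less in uFIB. The library labelled FGL held 7.04 FPKM of Tal1 at day 12, a factor its label does not name, and at day 21 its Fli1 was 3.35 FPKM beside 3.02 in uFIB. FGL at day 21 held 66.5 FPKM of Lmo2 and 35.1 of Gata2, against 2.28 and 2.13 in uFIB. The label of SL names neither Fli1 nor Gata2. Its libraries held 46.7 and 34.4 FPKM of Fli1 at day 12 and day 21, and 68.8 and 62.6 of Gata2. Values per gene do not separate an added copy from the cell's own gene. In such bulk samples, fewer cells of a type and less RNA per cell cannot be told apart.

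Class I heavy chain and light chain transcripts were present at low to moderate levels in the first 4 stages and among the highest of all genes in MAC. H2-K1 (chr17:33996017-34000347, GRCm38) measured 10.1 FPKM in ESCs, 29.7 at the MES stage, 16.4 at HB, 13.1 at HP and 725 in MAC. H2-D1 (chr17:35262730-35267499) measured 6.38, 10.6, 6.50, 6.19 and 758 FPKM in the same order. B2m (chr2:122147686-122153083) measured 22.1, 31.8, 21.5, 45.3 and 1375 FPKM. MAC thus held the highest value of each, 55.4-fold above HP for H2-K1, 123-fold for H2-D1 and 30.3-fold for B2m, and in MAC B2m was the gene with rank 22 and H2-K1 the gene with rank 44 of 20115. Among the earlier stages the order differed between genes, with MES next after MAC for the heavy chains and HP next after MAC for B2m. The ratio of B2m to the sum of both heavy chains was 1.35 in ESCs, 0.788 at the MES stage, 0.941 at HB, 2.35 at HP and 0.927 in MAC, so that it was highest in HP.

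**Figure D1:**
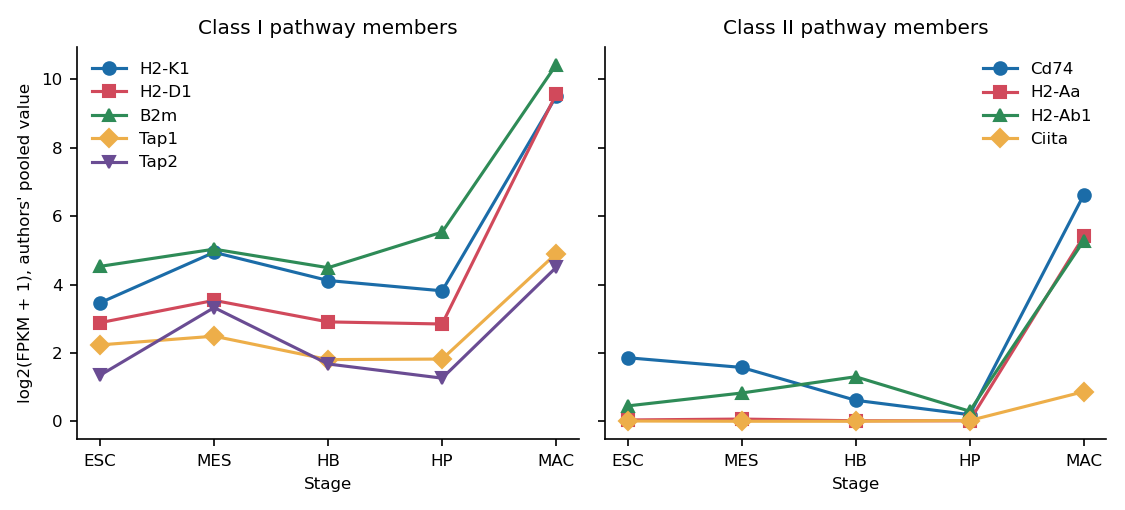
Expression of the 9 members in the table of stages as log2(FPKM + 1), with class I genes on the left and class II genes on the right and 1 point for the authors' combined value of a stage. All 9 had their highest value in MAC, as did 46.8% of the 12010 genes with at least 1 FPKM in a stage. Ciita stayed below 1 FPKM in MAC (0.821).

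The promoters of H2-K1, H2-D1, B2m and H2-Aa are shown because they carry, before the start of the gene, letters that resemble the elements through which both classes are known to be controlled. Sequences are those of RefSeq on GRCm38.p6, where 6 of the 10 members were matched and used, and the printed stretches lie at chr17:34000354-34000462 (minus strand), chr17:35262919-35263027 (plus strand), chr2:122147545-122147643 (plus strand) and chr17:34287862-34287902 (minus strand). Tap2, H2-Ab1 and Ciita had no entry among these promoters, and the promoter of Cd74 was not analysed here. The H2-D1 stretch is counted from the RefSeq start, and the GENCODE gene begins further upstream. Capitals mark, where present, GGGATTCCC (kappaB-like), TTTCNNTT or its reverse complement (ISRE-like), TGACG (the core of a cyclic AMP response element, X2-like) and ATTGG (the Y box, the reverse complement of CCAAT).
H2-K1: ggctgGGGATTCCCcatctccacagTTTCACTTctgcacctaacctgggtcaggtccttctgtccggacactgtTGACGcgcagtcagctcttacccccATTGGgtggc
H2-D1: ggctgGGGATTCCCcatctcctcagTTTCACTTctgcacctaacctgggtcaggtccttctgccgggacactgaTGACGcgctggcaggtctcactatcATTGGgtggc
B2m: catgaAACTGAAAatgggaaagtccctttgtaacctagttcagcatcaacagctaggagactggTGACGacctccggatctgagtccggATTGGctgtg
H2-Aa: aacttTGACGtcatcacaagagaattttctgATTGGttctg

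Of the 6 promoters used, these 4 were printed because in each TGACG was followed by ATTGG on the strand of the gene. The distance from start to start was 25 bases in H2-K1, H2-D1 and B2m and 26 in H2-Aa. H2-K1 and H2-D1 also shared GGGATTCCC and TTTCACTT at the same mutual spacing. Over the 250 bases before the start and on both strands, GGGATTCCC was found in 0.301% of 32851 promoters, TTTCNNTT in 21.3%, TGACG in 17.8% and ATTGG in 33.8%. The pair of TGACG and ATTGG at 20 to 30 bases was found in 0.207%, a distance set after the member sequences were seen. Tap1 held TGACG with no such pair, and Tapbp held ATTGG alone. In H2-Aa, TGACG also matched the other strand, overlapping the first match. An ISRE-like match of H2-Aa on the other strand, at -213 to -206 from the start, lies outside its printed stretch. So do ATTGG matches on the other strand nearer to the starts of H2-K1 and H2-D1. A match of letters is not a bound site.

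**Figure D2:**
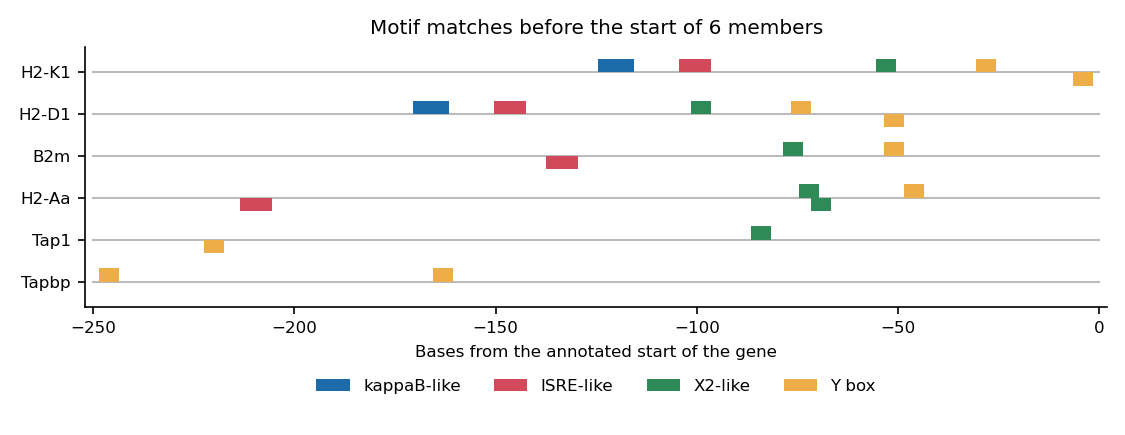
Matches of the 4 motifs in the 250 bases before the RefSeq start of 6 members, by distance from the start, with boxes above the line for the strand of the gene and below it for the other strand. H2-K1, H2-D1, B2m and H2-Aa each carry an X2-like box followed by a Y box 25 or 26 bases on, whereas Tap1 and Tapbp do not.

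The transporter genes had lower levels than the heavy chains and were also highest in MAC. Tap1 (chr17:34187553-34197225) measured 3.70 FPKM in ESCs, 4.61 at the MES stage, 2.49 at HB, 2.53 at HP and 28.9 in MAC. Tap2 (chr17:34203527-34216321) measured 1.54, 9.02, 2.19, 1.40 and 21.7 FPKM. Tap2 was the higher of both in MES and Tap1 in the 4 other stages. In MES, Tap2 stood 5.85-fold above ESC while Tap1 differed 1.25-fold.

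Transcripts of the class II chains were near 0 until MAC, with Cd74 low before it. H2-Aa (chr17:34282744-34287823) measured 0.026 FPKM in ESCs, 0.046 at the MES stage, 0.010 at HB, 0.009 at HP and 41.4 in MAC. H2-Ab1 (chr17:34257689-34269419) measured 0.365, 0.773, 1.47, 0.226 and 37.7 FPKM. Cd74 (chr18:60803848-60812652) measured 2.63, 1.98, 0.530, 0.143 and 97.1 FPKM, so that the 4 earlier stages stepped down in the order of differentiation before MAC. Ciita (chr16:10480059-10528418) was listed at 0.005 FPKM in ESC, 0 in MES and HB, 0.015 in HP and 0.821 in MAC, summed over 3 start sites, of which 1 carried 0.521 of the MAC value. Even in MAC the sum of the class I heavy chains was 18.7 times that of H2-Aa and H2-Ab1.

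Counted over the step from HP to MAC, 8 of the 9 members in the table were at least 2-fold higher and none was lower, where 30.2% of all genes were higher and 12.5% lower. The exception was Ciita, which did not reach 1 FPKM, and 3 of the 8 (Cd74, H2-Aa and H2-Ab1) passed the limit of 1 FPKM in HP or MAC only through MAC. Their differences on the log2(FPKM + 1) scale ran from 3.08 for Tap1 to 6.72 for H2-D1, with a median of 5.19 over the 8 beside 0.31 over all genes. Genes above 0 had an upper quartile of 18.1 FPKM in MAC against 10.2 to 11.4 in the other stages. After scaling all stages to the same upper quartile the median over all genes was -0.17 and 44.3% of changed genes were higher instead of 70.7%, and the members' differences ran from 2.42 for Tap1 to 6.01 for H2-D1. All 9 members had their highest value in MAC, as did 46.8% of the 12010 genes with at least 1 FPKM in a stage. The count of members is given as a description, since H2-Aa reached 1 FPKM in MAC alone and Ciita in no stage.

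From ESC to MES, H2-K1 and Tap2 were at least 2-fold higher and no member was lower, where 6.14% of all genes were higher and 6.47% lower. The difference on the log2(FPKM + 1) scale was 1.48 for H2-K1 and 1.98 for Tap2. From MES to HB, Tap2 was at least 2-fold lower, by 1.65 on that scale, and none was higher, where 2.15% of all genes were higher and 2.81% lower. Cd74, with 1.98 FPKM in MES and 0.530 in HB, was short of the limit with -0.96 and passed it with smaller pseudocounts and after scaling to the same upper quartile. H2-K1 fell short of the limit on this step with a difference of -0.82. The split of changed genes for MES to HB moved from 43.3% to 33.8% higher with the scaling. From HB to HP, B2m was higher by 1.04 and H2-Ab1 lower by 1.01, both just past the limit, where 7.78% of all genes were higher and 7.71% lower. H2-Ab1 reached only 1.47 FPKM in HB.

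The genes that cut peptides for class I showed the same order of MES above ESC and HB as H2-K1 and Tap2. Psmb8, Psmb9 and Psmb10 encode the inducible catalytic subunits that replace Psmb5, Psmb6 and Psmb7 in the immunoproteasome, and Psme1 and Psme2 its activator PA28. Psmb8 measured 2.60 FPKM in ESCs, 32.1 at the MES stage, 7.64 at HB, 1.99 at HP and 80.0 in MAC. Psmb10 measured 13.2, 69.5, 28.3, 18.4 and 87.0 FPKM. Of the 5 genes, 4 were at least 2-fold higher from ESC to MES, all except Psmb9 with 1.98 and 4.71 FPKM, 3 were lower from MES to HB, 1 was lower from HB to HP, and all 5 were higher from HP to MAC. On the same steps 6.14% of all genes were higher, 2.81% lower, 7.71% lower and 30.2% higher. The median differences were 1.79, -1.27, -0.60 and 2.18 on the log2(FPKM + 1) scale. Of the 3 constitutive subunits none passed the limit before MAC, where Psmb6 did with 98.4 FPKM in HP and 306 in MAC. The ratio of Psmb8 to Psmb5 was 0.0779 in ESCs, 0.760 at the MES stage, 0.175 at HB, 0.0577 at HP and 1.55 in MAC.

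**Figure D3:**
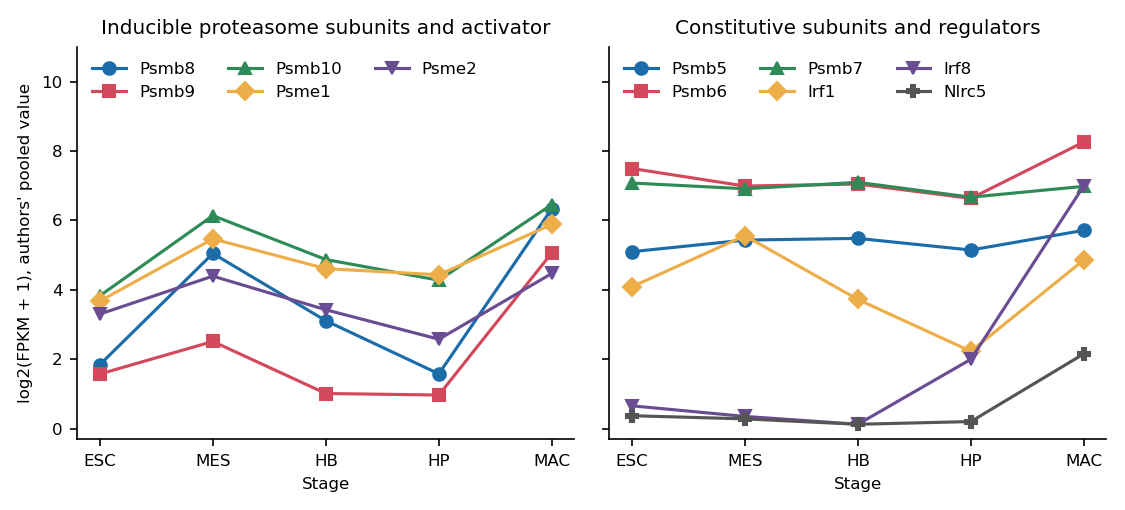
Expression of inducible proteasome subunits and the PA28 activator (left) and of constitutive subunits and 3 regulators (right) by stage as log2(FPKM + 1), with 1 point for the authors' combined value of a stage. The inducible genes have a peak in MES and a second in MAC, and Irf1 shares both, with 46.2 FPKM in MES and 28.1 in MAC.

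Among the genes of peptide loading and trimming, Erap1, the aminopeptidase that trims peptides for class I, measured 2.50 FPKM in ESCs, 14.8 at the MES stage, 6.22 at HB, 3.68 at HP and 33.9 in MAC. Erap1 and the tapasin relative Tapbpl were at least 2-fold higher from ESC to MES and lower again in HB, whereas the disulfide isomerase Pdia3 was lower from ESC to MES with 96.6 and 33.3 FPKM. From HP to MAC, 3 of 4 measured genes were higher, among them the chaperone Calr with 208 and 559 FPKM, where 30.2% of all genes were higher.

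Other heavy chain genes differed in where they were high. H2-Q4 measured 2.96 FPKM in ESCs, 8.33 at the MES stage, 2.80 at HB, 0.629 at HP and 16.0 in MAC, with MES above its neighbours like H2-K1. H2-M5 was highest in ESC with 6.09 FPKM and was at most 0.422 in every later stage. H2-T23 (Qa-1, the ligand of the NKG2A receptor of natural killer cells) and H2-T24 were at most 0.284 FPKM through HB, 1.22 and 5.44 in HP and 116 and 88.0 in MAC. Of the 21 further heavy chain genes listed, 17 were in the table and 10 reached 1 FPKM in a stage. Of these, 4 were higher and 1 lower from ESC to MES, and 0 and 2 from MES to HB. From HB to HP the numbers were 1 and 2, and from HP to MAC 8 and 0. The shares of all genes, higher and lower, were 6.14% and 6.47%, 2.15% and 2.81%, 7.78% and 7.71%, and 30.2% and 12.5%. Of the 8, H2-Q4, H2-Q7, H2-Q8, H2-M2 and H2-M3 passed the limit of 1 FPKM in HP or MAC only through MAC. Keeping only reads that mapped uniquely can lower the values of near-identical heavy chain genes, and this was not tested here. Of the 5 MHC-like genes, 3 were higher from HP to MAC (Mr1, Hfe and Fcgrt), where 30.2% of all genes were higher. All 3 reached 1 FPKM in MAC alone and could only be called higher, so that this count is given as a description. The IgG receptor Fcgrt measured 0.389 and 163 FPKM and the iron regulator Hfe 0.530 and 26.3.

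The remaining class II genes followed H2-Aa. H2-Eb1, the beta chain of I-E, was listed at 0 in HP and at 28.3 FPKM in MAC, and H2-DMa and H2-DMb1, which exchange the invariant chain peptide, measured 0.130 and 0.020 FPKM in HP and 16.7 and 10.4 in MAC. Of 7 such genes 4 reached 1 FPKM in a stage, all 4 only in MAC, so that none could be called 2-fold changed before. H2-Oa, which modulates that exchange, measured 0.773 FPKM in MAC. Genes of endosomal processing were expressed throughout and far higher in MAC. The cathepsin Ctsl measured 41.5 FPKM in HP and 7629 in MAC, the legumain gene Lgmn 14.1 and 1527, and the thiol reductase Ifi30 4.28 and 112. The B7 gene Cd86, which costimulates T cells, measured 0.622 FPKM in HP and 25.5 in MAC, and Cd83 0.051 and 67.7. Cd40, the receptor through which T cells activate antigen-presenting cells, went another way, with 1.93 FPKM in ESCs, 6.71 at the MES stage, 24.1 at HB, 0.385 at HP and 0.162 in MAC.

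Of the 13 genes listed as regulators of MHC promoters, 1 was higher from ESC to MES, 1 lower from MES to HB, 4 higher and 1 lower from HB to HP, and 6 higher and 1 lower from HP to MAC. The first 2 were the same gene, Irf1, an interferon-induced activator of class I and immunoproteasome promoters, with 16.0 FPKM in ESCs, 46.2 at the MES stage, 12.2 at HB, 3.69 at HP and 28.1 in MAC. Irf8 and Spi1 (PU.1), both factors of the myeloid lineage, measured 2.999 and 16.7 FPKM in HP and 127 and 111 in MAC. Nlrc5, the class I transactivator, was at most 0.295 FPKM before MAC and 3.46 in MAC, and it is named here after its values were seen. The CCAAT-binding subunit gene Nfyb went down from HP to MAC, with 11.6 and 4.98 FPKM. The interferon genes Ifng and Ifnb1 themselves were at most 0.080 FPKM in every stage, while the receptor gene Ifngr1 rose past the limit from 8.90 FPKM in HP to 115 in MAC. Over all 73 pathway genes outside the members, 67 were in the table and 54 reached 1 FPKM in a stage. Of these, 14 were higher and 2 lower from ESC to MES, 1 and 8 from MES to HB, 6 and 6 from HB to HP, and 39 and 1 from HP to MAC. The shares of all genes for these steps, higher and lower, were 6.14% and 6.47%, 2.15% and 2.81%, 7.78% and 7.71%, and 30.2% and 12.5%, and the counts from HB to HP lie near them. Among the 39, H2-Q7, H2-M2, Mr1, Hfe, Fcgrt, H2-Eb1, H2-DMa, H2-DMb1, H2-DMb2, Nlrc5, Cd80, Cd86 and Cd83 reached 1 FPKM in MAC alone. Such genes could only be called higher on the step to MAC, so that the count of 39 is given as a description.

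Markers of other cells that carry class II, and of fibroblasts, were read beside these values. All 7 macrophage markers were at 92.8 to 353 FPKM in MAC and none was at 0. Of the 8 dendritic cell markers 1, Itgax, which macrophages also express, was at 143 FPKM in MAC, and the other 7 ranged from 0.006 to 3.59. The 6 B cell markers summed to 0.069 FPKM in MAC, with 4 at 0, among them Ms4a1. Feeder and other fibroblast markers (8 measured) had sums of 7.23 FPKM in ESCs, 5.78 at the MES stage, 5.89 at HB, 61.1 at HP and 2.88 in MAC. The part of these cell types in the members' values was not tested.

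In MEFs the class I members were expressed in every library, and in the SL and SFGL libraries several of them were lower than in uFIB. The 3 libraries of a day are each set against the same uFIB library, so that these comparisons share their control. B2m measured 1586 FPKM in untreated MEFs, 706 with SL, 627 with SFGL and 1625 with FGL at day 12. At day 21 it measured 2725 in untreated MEFs, 823 with SL, 594 with SFGL and 2955 with FGL. The 4 SL and SFGL libraries thus lay between 594 and 823 FPKM, and the uFIB and FGL libraries between 1586 and 2955. How many of all genes separate these libraries in the same way was not counted. B2m was lower by 1.17 in SL and by 1.34 in SFGL at day 12, and by 1.73 and 2.20 at day 21, on the log2(FPKM + 1) scale.

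The heavy chains divided by day. H2-K1 measured 154 FPKM in untreated MEFs, 131 with SL, 150 with SFGL and 165 with FGL at day 12, and 163, 68.0, 68.1 and 152 at day 21. H2-D1 measured 256, 319, 335 and 279 FPKM at day 12, and 351, 166, 160 and 281 at day 21. At day 12 no library was 2-fold from uFIB for either gene, and H2-D1 was even above uFIB in SL and SFGL, whereas at day 21 both genes were 2.12- to 2.40-fold lower in these treatments. The change between the days was not tested. Against the mean of uFIB over the 2 days, the H2-D1 difference at day 21 was -0.87 in SL and -0.92 in SFGL and no longer reached the limit. The ratio of B2m to the sum of both heavy chains was 1.57 in SL and 1.29 in SFGL at day 12 against 3.87 in uFIB, and 3.52 and 2.60 against 5.30 at day 21.

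**Figure D4:**
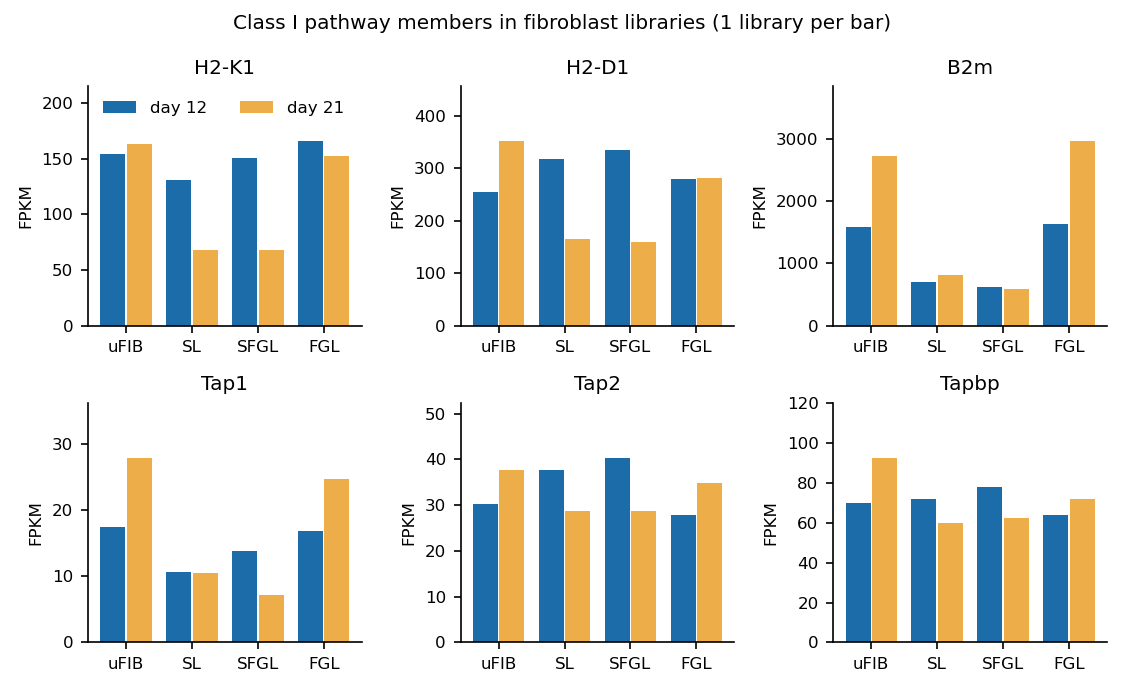
FPKM of the 6 class I pathway members in the 8 MEF libraries, each on its own linear axis from 0, with 1 bar per library and no error because each condition has 1 library. B2m is at least 2-fold lower than uFIB in SL and SFGL on both days (594 to 823 FPKM). H2-K1 and H2-D1 are at least 2-fold lower in them at day 21 alone.

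Of the genes that supply peptide, Tap1 measured 17.4 FPKM in untreated MEFs, 10.7 with SL, 13.8 with SFGL and 16.8 with FGL at day 12, and 27.9, 10.5, 7.13 and 24.6 at day 21. Tap2 measured 30.3, 37.6, 40.3 and 27.9 FPKM at day 12, and 37.6, 28.7, 28.7 and 34.8 at day 21. Tapbp (chr17:33915899-33929292) measured 70.1, 71.9, 77.9 and 64.0 FPKM, and then 92.5, 60.0, 62.6 and 72.0. Tap1 passed the 2-fold limit at day 21, by 1.33 in SL and 1.83 in SFGL, whereas Tap2 and Tapbp passed it in no library.

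Class II members were near the lower limit of measurement in MEFs. Cd74 measured 0.430 FPKM in untreated MEFs, 1.81 with SL, 1.56 with SFGL and 0.192 with FGL at day 12, and 0.284, 0.885, 0.416 and 0.823 at day 21. H2-Ab1 measured 0, 1.03, 0.780 and 0.149 FPKM at day 12, and 0.348, 0.547, 0.357 and 0.094 at day 21. H2-Aa was listed at 0 in 7 of the 8 libraries and at 0.044 FPKM in uFIB at day 21, and Ciita was at most 0.095 FPKM. Only Cd74 and H2-Ab1 reached 1 FPKM in any library. The H2-Ab1 value of SL at day 12 passed the 2-fold limit narrowly and not after scaling to the same upper quartile (0.99) or against the mean of uFIB over the 2 days (0.79).

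At day 12, SL had 1 member higher (H2-Ab1) and 1 lower (B2m), where 13.7% of all genes were higher and 13.2% lower, and SFGL had 0 higher and 1 lower (B2m), where 14.2% were higher and 16.5% lower. At day 21, SL and SFGL each had 0 higher and the same 4 lower, H2-K1, H2-D1, B2m and Tap1, of 8 members with at least 1 FPKM in a library. The shares of all genes there were 11.5% higher and 12.1% lower in SL, and 13.5% higher and 15.6% lower in SFGL. The median difference at day 21 over the 6 class I members was -1.16 in SL and -1.19 in SFGL, beside -0.04 over all genes in both. FGL had 0 members higher or lower on either day, where 2.8% of all genes were higher and 0.279% lower at day 12, and 0.433% and 0.34% at day 21. For FGL at day 21 the changed genes that were higher made up 56% as deposited and 44.6% after scaling.

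Other genes of the class I pathway were lower with these 4 members at day 21. Psmb9 measured 15.9 FPKM in untreated MEFs, 6.01 with SL and 3.53 with SFGL, and Erap1 12.5, 5.66 and 5.38. Psmb10 measured 18.7, 5.83 and 9.27 FPKM and passed the limit in SL alone. The heavy chain gene H2-Q4 measured 97.5, 32.9 and 23.9 FPKM, and H2-T22, listed jointly with H2-T9, 25.1, 8.13 and 7.18. H2-T24 was above uFIB instead, with 1.35 FPKM in untreated MEFs, 4.61 with SL and 5.96 with SFGL at day 12, and 6.49, 9.19 and 21.0 at day 21, where SL did not pass the limit. H2-T23 measured 18.5, 29.5 and 40.9 FPKM at day 12, and 24.6, 20.2 and 30.6 at day 21, and it passed the limit in SFGL at day 12 alone. Calr passed it upward in SFGL on both days, with 650 and 1740 FPKM at day 12 and 698 and 1809 at day 21. Over the 52 pathway genes with at least 1 FPKM in a library, 6 were higher and 3 lower in SL and 8 and 6 in SFGL at day 12. At day 21 these numbers were 2 and 12 in SL and 7 and 13 in SFGL. In FGL they were 1 and 0 at day 12, and 0 and 0 at day 21. Beside the shares of all genes, 13.7% higher and 13.2% lower in SL and 14.2% and 16.5% in SFGL at day 12, and 11.5% and 12.1% in SL and 13.5% and 15.6% in SFGL at day 21, the counts of day 12 lie near or below the background.

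Among the MHC-like genes, Fcgrt measured 46.2 FPKM in untreated MEFs, 12.7 with SL and 10.01 with SFGL at day 12, and 52.2, 11.2 and 8.87 at day 21. Cd1d1, which presents lipids to natural killer T cells, measured 15.5, 5.99 and 3.85, and then 15.0, 2.86 and 2.80. Both were lower in SL and SFGL on both days. H2-Oa was listed at 0 in uFIB on both days and measured 2.61 to 5.65 FPKM in SL and SFGL.

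**Figure D5:**
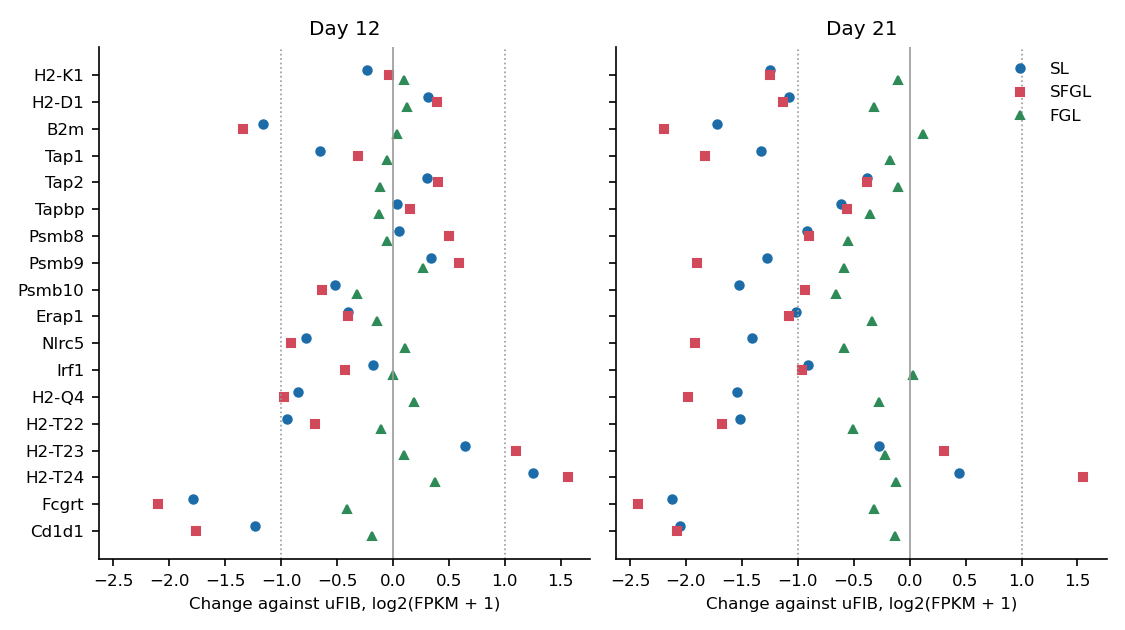
Difference from the uFIB library of the same day on the log2(FPKM + 1) scale for class I members and other genes of antigen presentation, with day 12 on the left, day 21 on the right, 1 symbol per library and dotted lines at the 2-fold limit. FGL lies within the limit for each gene shown, and B2m, H2-K1, H2-D1 and Tap1 lie beyond -1 in SL and SFGL at day 21.

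Of the regulators, Irf1 measured 17.0 FPKM in untreated MEFs, 14.9 with SL, 12.3 with SFGL and 17.0 with FGL at day 12, and 18.04, 9.12, 8.78 and 18.5 at day 21, short of the limit. Nlrc5, named after its values were seen, measured 1.57, 0.497, 0.363 and 1.76 FPKM, and then 4.08, 0.906, 0.344 and 2.37, and it was 2-fold lower in SL and SFGL at day 21. Spi1 was at most 0.712 FPKM in uFIB and 81.6 to 171 in SL and SFGL, and 16.9 and 0.083 in FGL at day 12 and day 21. The interferon gamma receptor gene Ifngr1 was 2-fold higher in SL at day 12 and in SFGL on both days, with 30.9 FPKM in untreated MEFs, 76.9 with SL and 83.7 with SFGL at day 12. Ifng was listed at 0 in all 8 libraries.

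Markers of cell types moved in the same libraries. All 9 fibroblast markers were lower in SL and SFGL at day 12 and 8 of 9 at day 21, and their sum was 6445 to 8324 FPKM in uFIB, 6532 to 7081 in FGL and 1351 to 2810 in SL and SFGL. The 7 macrophage markers summed to 7.56 to 9.68 FPKM in uFIB and 42.5 to 88.2 in SL and SFGL, led by Cd14 and Cd68, with Mrc1 at most 0.573 and Fcgr1 at most 0.146. The 4 hematopoietic progenitor markers summed to 21.5 to 25.9 FPKM in uFIB and 120 to 209 in SL and SFGL. The 8 dendritic cell markers summed to 1.43 to 3.09 FPKM over all 8 libraries. Depth relative to uFIB at day 12, estimated from the steps between low values, was 1.12 to 1.56 in the other day 12 libraries and 1.43, 0.607, 0.775 and 0.587 in uFIB, SL, SFGL and FGL at day 21. The part of these cell types or of depth in the lower class I values was not tested.

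Across the 8 MEF libraries, the genes most like the mean profile of H2-K1, H2-D1 and B2m among 7985 genes with at least 10 FPKM in a library were Pnpla2 (Pearson's r = 0.987), Adam15 (0.979), Repin1 (0.978), Chl1 (0.978) and Gpd1 (0.977). Pnpla2, the adipose triglyceride lipase, measured 121 FPKM in untreated MEFs, 65.0 with SL, 60.7 with SFGL and 98.4 with FGL at day 12, and 161, 32.7, 31.1 and 145 at day 21. For the class II profile, which rests on values of at most 1.81 FPKM, they were Cldn15 (0.982), Panx1 (0.977), G6pdx (0.974), Gnai2 (0.974) and Slc35e1 (0.973). These values describe libraries that share treatment, day and depth.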

How the data were processed

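The authors deposited FPKM in both tables. Per the labels and the study's methods, reads of the stages were aligned in colour space with SHRiMP to mm10 (GRCm38), reads with a single position were kept, duplicates were removed with Picard, which limits the highest values, and expression was calculated with Cufflinks. For the MEFs the submitters' processing notes name TopHat and Cufflinks. Versions were not given in the sources used here. The deposited FPKM of a stage merge its replicates in a single value per start site, MEF values are per gene and library, and both tables were normalized separately. Read numbers are not part of FPKM, so that depth was known only as the relative estimate given for the MEFs, and the values did not come out as whole reads. Of the stage values, 1 further column had no sample here and was not used.

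Start sites were summed per gene, each name of a joint row was given its value, and a pseudocount of 1 was added before taking log2. Genes were counted as changed at a fold of 2 with a minimum of 1 FPKM. No test or p-value was calculated. Single values of some listed genes are not reported here. The planned comparisons were ESC to MES, MES to HB, HB to HP, HP to MAC, and SL, SFGL and FGL against uFIB of the same day. The members and lists were chosen with earlier results of these data known. Named were the 10 members, up to 6 genes of each list with the highest value in the table, and the 5 genes most alike by Pearson's r over the MEF libraries. Gene positions are those of GENCODE M21 on GRCm38, counted from 1, and the B2m row of the stage table spans a wider interval than the gene. The alternatives were pseudocounts of 0.1 and 0.001, scaling to the same upper quartile, no limit on low values, the highest start site alone, and a reference averaged over the 2 uFIB libraries. The software was Python 3.11.15 with NumPy 2.4.6, pandas 2.3.3 and matplotlib 3.10.9.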

Additional observations from a re-analysis of the deposited data

Results flagged for a closer look

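H2-D1 differed from uFIB in opposite directions on the 2 days. In SL the difference on the log2(FPKM + 1) scale was 0.32 at day 12 and -1.08 at day 21, and in SFGL it was 0.39 at day 12 and -1.13 at day 21. Each value compares 1 library with 1 library, both treatments of a day share their uFIB library, and the difference between the days was not tested. In uFIB itself H2-D1 measured 256 FPKM at day 12 and 351 at day 21, and the relative depth of the day 21 SL and SFGL libraries was 0.607 and 0.775.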

How the results depend on the processing

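Of 50 counts of changed members recalculated under an alternative, 44 stayed within 1.5 times the reported count. The 10 counts with no limit on low values could not change. With a pseudocount of 1, a 2-fold difference already requires at least 1 FPKM in the higher value. From MES to HB the count was 2 in place of 1 with a pseudocount of 0.1, with one of 0.001 and after scaling to the same upper quartile, because Cd74 was added, with differences of -1.72, -1.90 and -1.10. For SL at day 12 it was 1 in place of 2 after that scaling, which removed H2-Ab1, and 3 against the mean of uFIB over the 2 days, with Cd74 higher and B2m and Tap1 lower. For SFGL at day 12 it was 2 in place of 1 with either pseudocount, because Cd74 was added with 1.65 and 1.86. The 8 members higher from HP to MAC were the same under every alternative run. The 4 lower in SL and SFGL at day 21 were the same except against the mean of uFIB over the 2 days, which left 3 without H2-D1. Of the other pathway genes, 14 in place of 9 had changed in SL at day 12 with a pseudocount of 0.001 or against that mean, and in FGL at day 12 the count of 1 became 2 with either pseudocount and 3 against that mean. No difference of a changed member reversed its direction among the alternatives run.

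No paired analysis was possible because the stage table gives 1 value for both numbered replicates, and leaving out a replicate was not run for the same reason. A fit of the MEFs that pairs each treatment with uFIB by day was not run. Without replicates or read numbers, differences near the 2-fold limit, such as those of B2m and H2-Ab1 from HB to HP, have no error, and class II values of MEFs lie at or below 1.81 FPKM.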

Other observations

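Some class I heavy chain genes were higher in all MEF libraries of day 21 than in those of day 12, and within day 21 they were also lower in SL and SFGL than in uFIB and FGL. H2-Q2, chosen after its values were seen, measured 0.612 FPKM in untreated MEFs, 0.900 with SL, 0.647 with SFGL and 1.37 with FGL at day 12, and 14.1, 6.95, 6.55 and 12.9 at day 21. The 4 libraries of day 21 all lay above the 4 of day 12 for 3 of 11 further heavy chain genes with at least 1 FPKM in a library, H2-Q1, H2-Q2 and H2-T10, and for 187 of 12923 genes in all (1.45%). The lowest day 21 value was at least 2-fold above the highest day 12 value, on the FPKM + 1 scale, for H2-Q2 and for 7 genes in all, H2-Q2 included. None of the 8 members with at least 1 FPKM separated in this way. Whether the MEFs of both days came from the same preparation was not given in the sources used here.

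Ebf1, listed among the B cell markers, measured 47.3 FPKM in uFIB at day 12 and 51.7 at day 21, and 6.87 to 12.7 in SL and SFGL.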
